A study of Rattus norvegicus with 12 samples.

Results

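The hepatic ABC efflux pumps are 10 genes of the ATP-binding cassette family, Abcc3, Abcb1a, Abcb1b, Abcc2, Abcb11, Abcb4, Abcg2, Abcg5, Abcg8 and Abcc6. Members were the probe sets that the platform annotation gives to 1 of these genes alone, which were 10 of the 29176 probe sets on the array. They covered 9 of the 10 genes (13643 genes have a probe set of their own on this array), with 2 probe sets for Abcb1a and none for Abcb1b, which was represented only by a probe set that it shares with Abcb1a. Liver RNA came from 12 male Sprague Dawley rats of 176 to 200 g (as labelled), with 3 rats and 3 Affymetrix RAE230 arrays in each of 4 groups. Vehicle rats received 0.2% HPMC, a cellulose suspending agent, by mouth at 10 ml/kg, and treated rats received the low (30 mg/kg), middle (100 mg/kg) or high dose (200 mg/kg) of A-998679, an experimental compound made for neuropsychiatric use; the study looked for the mechanism by which its plasma exposure fell on repeated dosing. All 4 groups were dosed for 5 days and fasted overnight before the livers were taken and frozen. The titles give the high dose as 200 mg/kg and a description field gives 300 mg/kg for the same rats; the titles are followed here.

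ABC efflux pumps use ATP to move substrates out of the cell, and in hepatocytes they sit on opposite faces. On the canalicular face, P-glycoprotein and Abcg2 carry drugs, Abcc2 carries glucuronide and glutathione conjugates, Abcb11 carries bile salts, Abcb4 flips phosphatidylcholine, and the Abcg5 and Abcg8 heterodimer carries sterols, all into bile. On the sinusoidal face, Abcc3 returns glucuronides and bile salts to the blood and Abcc6 mediates the release of ATP.

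Values are log2 intensities converted from the deposited log10 values, and an empty value is treated as missing. Intensities of different probe sets are not read as relative amounts of RNA, since probes differ in affinity. Array medians lay between 5.21 and 5.26, and arrays of the same group correlated at 0.913 to 0.938 across probe sets measured in all 12 rats, against 0.910 to 0.941 for arrays of different groups. All 6 hepatocyte markers examined were measured in every rat. In none of 7 lists of cell type markers did a gene pass the test at the high dose, where 0.211% of all probe sets passed. The summed hepatocyte intensity was 37487 to 39856 units in vehicle rats and 31478 to 38077 at the high dose. There 1 of the 6 markers was lower at an unadjusted limma p under 0.05, beside 10.5% of all genes higher or lower. In whole liver, a change in RNA per cell and a change in the number of cells that express a gene cannot be told apart.

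Among the pumps, Abcb1a rose with dose and was 2.17-fold above vehicle at the high dose. Abcc3, with no value in any vehicle liver, was measured in all rats at the middle and high doses. The probe sets of Abcc2, Abcb11, Abcb4, Abcg2, Abcg5, Abcg8 and Abcc6 did not pass the test in any comparison. Across the 120 pump values, 5 were empty, 3 of 30 in vehicle rats, 2 of 30 at the low dose and none at the higher doses, and all 5 belonged to Abcc3.

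Abcc3 (Mrp3) was the pump with the widest range. No value was recorded in any of the 3 vehicle rats, and at the low dose the value was empty in rats 1 and 2 and 4.57 in rat 3. At the middle dose the log2 intensities were 4.91, 6.65 and 5.45, and at the high dose they were 7.77, 8.25 and 7.62. Every rat at the high dose was thus above every rat at the middle dose, and each of those was above the single measured rat at the low dose. The share of all probe sets with such an order was not counted. The mean was 5.67 ± 0.89 (SD, n = 3) at the middle dose and 7.88 ± 0.33 (SD, n = 3) at the high dose. On the linear scale these geometric means were 50.9 and 236 units, against 23.8 units in rat 3 at the low dose.

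Because vehicle rats had no Abcc3 value, the difference from vehicle can be given only as a lower bound, and only under an assumed floor. Empty values were most frequent in dim probe sets: 1.95% of values were empty where the mean log2 level was 4 to 5, 0.227% at 5 to 6, and 0.093% at 6 to 7. The bound was set against the 25th percentile of all values (log2 3.84, 14.3 units). The reason for empty values is not given, so a vehicle level at or below this floor is an assumption. Under it Abcc3 was at least 16.5-fold higher at the high dose (log2 4.04) and at least 3.56-fold higher at the middle dose (log2 1.83). The 3 rats at the high dose stood 15.3, 21.3 and 13.8 times above the floor, and at the middle dose rats 1 and 3 stood 2.10 and 3.06 times above it, below rat 2 of that group. The only measured rat at the low dose stood 1.67 times above it. A floor placed at the median of all values (37.4 units), an alternative chosen after the data were seen, gave under the same assumption at least 6.31-fold at the high dose. At the middle dose it gave at least 1.36-fold, which rested on rat 2, since rats 1 and 3 stood at 0.805 and 1.17 times this floor.

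The pattern of Abcc3, empty in all vehicle rats and measured in all rats at the high dose, was shared by 51 probe sets, 0.175% of those on the array. Among these 51, Abcc3 had the highest mean at the high dose (7.88), and the next was Cyp1a1, the xenobiotic-oxidising cytochrome P450, at 7.76. Probe sets with a mean at or above that of Abcc3 and no vehicle value made up 0.00343% of the array, which was Abcc3 itself. This share follows from the ranking just given, since the cutoff was the mean of Abcc3, and is no separate result. The ranking itself cannot tell which RNA was more abundant, since it sets intensities of probes that differ in affinity side by side. The 51 were also selected for having values at the high dose, the group they are ranked on. No conclusion is drawn from the rank of Abcc3 or from its place beside Cyp1a1. In a 2-sided exact permutation test with empty values at the floor, p was 0.1 for the middle and the high dose against vehicle, the lowest value possible with 3 rats per group. This test and all floor fits give every vehicle rat, and the unmeasured low-dose rats, the same filled-in Abcc3 value, with no spread. Their p-values for Abcc3 therefore rest on filled-in values and on the floor chosen. With all empty and dim values at the floor, limma gave an adjusted p of 0.0175 at the high dose and 0.552 at the middle dose, where 0.0617% and 0.0171% of all probe sets were called. With the floor at the median the adjusted p of limma at the high dose was 0.0555. The slope over dose in the first of these floor fits was 2.09 log2 units per 100 mg/kg (SE 0.18, limma adjusted p = 0.00623, with 0.123% of all probe sets called). With the floor at the median it was 1.36 per 100 mg/kg (limma adjusted p = 0.0279, with 0.117% called).

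Between doses, Abcc3 can be compared on measured values. It was 4.64-fold higher at the high than at the middle dose, a log2 difference of 2.21 (95% interval 1.34 to 3.08). The limma adjusted p was 0.412, and no probe set on the array (0%) was called in that comparison. Against the single rat measured at the low dose the log2 difference at the high dose was 3.31 (95% interval 2.08 to 4.54, limma adjusted p = 0.119, with 0.0185% of probe sets called), and here the interval and p assume that the lone rat varies like the other groups. Neither comparison was called. Without rat 2 at the middle dose the limma adjusted p for high against middle dose was 0.0442. It was the only 1 of 12 fits without 1 rat to be called, and the adjusted p of limma ran up to 0.668. High against low dose was called in 1 of 11 such fits, the one without that rat, and with only the 2 groups in the fit. It was also called with empty and dim values at the floor (limma adjusted p = 0.0443, with 0.0206% of all probe sets called). It was not called without the variance trend, with the probe sets of a gene averaged, or with the floor at the median (limma adjusted p = 0.170, with 0% called). Abcc3 is also made by bile duct cells, and the summed intensity of 5 cholangiocyte markers, among them Krt19 and Epcam, was 122 to 169 units in vehicle rats, 157 to 193 at the low dose, 172 to 232 at the middle dose and 124 to 195 at the high dose. Epcam made up most of this sum (mean log2 6.73, against 2.89 to 4.83 for the other markers), and empty values counted as 0 in it. The 3 rats at the middle dose were above all vehicle rats in this sum, and the high-dose range overlapped that of vehicle. At the high dose none of the 5 markers passed the test, and their part in the Abcc3 result was not tested.

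**Figure D1:**
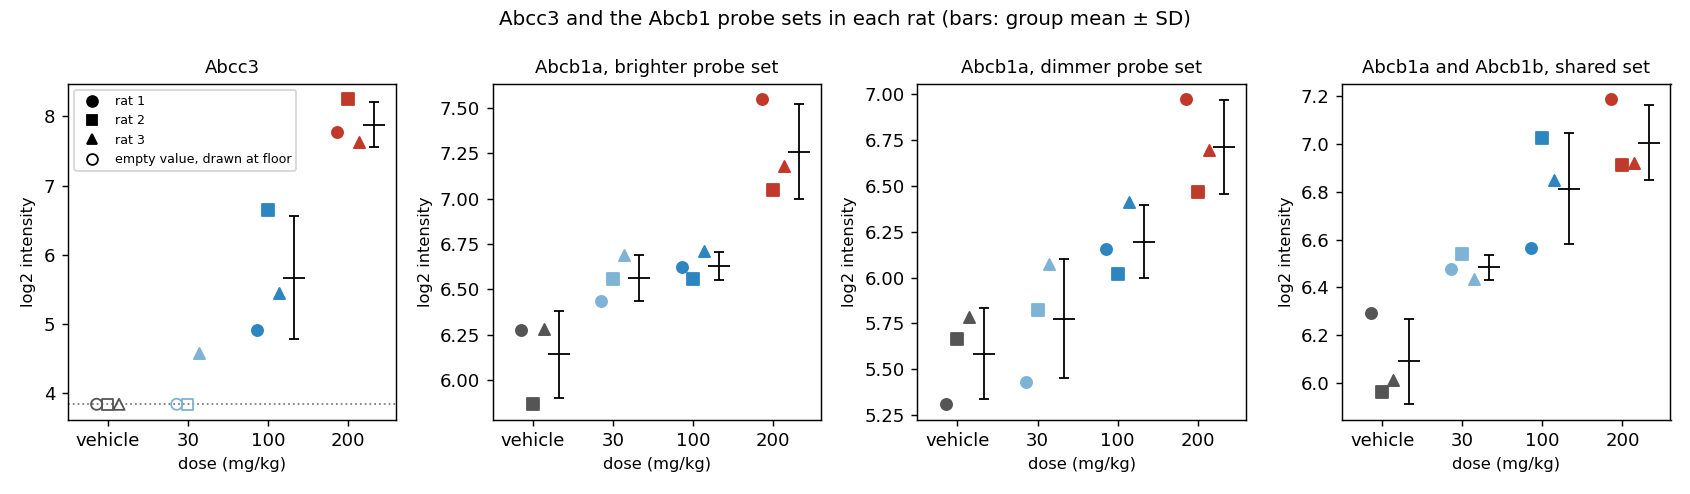
Log2 intensity (vertical axes, each with its own range) of Abcc3, both Abcb1a probe sets and the probe set shared by Abcb1a and Abcb1b in each rat, by dose in mg/kg; filled symbols are single rats, open symbols are empty values drawn at the floor of 3.84 (dotted line), and bars are group means ± SD. Abcc3 lies between 7.62 and 8.25 at the high dose with no vehicle value, and all 9 treated rats lie above the 3 vehicle rats in the brighter Abcb1a set and in the shared set; rat numbers name rats and do not link them across groups.

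Abcb1a encodes a rodent P-glycoprotein, the multidrug pump that rodents carry in a pair, Abcb1a and Abcb1b, where humans have a single gene. In the GRCr8 assembly of RefSeq, Abcb4, Abcb1b and Abcb1a are successive protein-coding genes on chromosome 4. The 250 bases before the Abcb1a start in RefSeq's window table (GRCr8, chr4:26397649-26397898, minus strand) are shown because Abcb1a is the pump called against vehicle. They are in lower case throughout, since they hold neither of 2 motif cores searched on both strands, GCGTG of the response element of AhR (the aryl hydrocarbon receptor) and TGACNNNGC of the antioxidant response element. This start lies 90808 bases inside the annotated gene of 176054 bases and not at its outer end, so the bases at that end were not searched.
Abcb1a: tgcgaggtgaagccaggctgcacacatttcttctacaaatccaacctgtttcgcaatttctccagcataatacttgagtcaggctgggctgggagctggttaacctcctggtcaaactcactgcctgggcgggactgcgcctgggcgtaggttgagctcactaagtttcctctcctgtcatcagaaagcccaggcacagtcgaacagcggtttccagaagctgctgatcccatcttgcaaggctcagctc
Windows from 250 bases before to 50 after the start were given by RefSeq for 8 of the 10 pumps, without Abcc3 and Abcb11. The start was the outer end of the annotated gene for 4 of the 8 (Abcc2, Abcc6, Abcg5 and Abcg8). It lay inside the gene for the other 4, by 90808 bases in Abcb1a, 69418 in Abcg2, 295 in Abcb4 and 127 in Abcb1b. Of 33469 such windows in the rat, 29.7% hold GCGTG and 12.1% hold TGACNNNGC. Among the 8 pumps, GCGTG occurred 4 times in the Abcb4 window and 1 time in that of Abcg2, and TGACNNNGC occurred 1 time in that of Abcc2 and at 1 place that the Abcg5 and Abcg8 windows share. No 2 matches overlapped between the motifs. The Abcb1b and Abcc6 windows, like that of Abcb1a, held neither.

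The brighter Abcb1a probe set read 6.28, 5.87 and 6.28 in vehicle rats, 6.44, 6.56 and 6.69 at the low dose, 6.62, 6.56 and 6.71 at the middle dose, and 7.55, 7.05 and 7.18 at the high dose. All 9 treated rats were above all 3 vehicle rats, a separation shown by 0.683% of the 20497 probe sets measured in all 12 rats. The 3 rats at the high dose were also above all other rats, and the share of all probe sets with that order was not counted. The ranges at the low and middle doses overlapped. The exact permutation test of the 9 treated against the 3 vehicle rats gave p = 0.00909 (2-sided), the smallest it can give.

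The mean rose from 6.14 ± 0.24 in vehicle rats to 6.56 ± 0.13 at the low dose, 6.63 ± 0.077 at the middle dose and 7.26 ± 0.26 at the high dose (SD, n = 3 each). At the high dose the log2 difference was 1.12, 2.17-fold (SE 0.16, 95% interval 0.77 to 1.47, limma adjusted p = 0.0130). It was the only pump probe set called at that dose, where 0.211% of all probe sets were called, 0.119% as higher. The differences of 0.42 at the low dose and 0.49 at the middle dose did not pass (limma adjusted p = 0.950 and 0.694). The slope was 0.50 log2 units per 100 mg/kg (SE 0.080, limma adjusted p = 0.0128). The call at the high dose was lost without vehicle rat 2, the lowest of the 12 rats (log2 0.98, limma adjusted p = 0.0565), and the slope was lost without rat 1 at the high dose, the highest (0.43 per 100 mg/kg, limma adjusted p = 0.0754). The call at the high dose was also lost with empty and dim values at the floor, without the variance trend and with only the 2 groups in the fit (limma adjusted p = 0.0648, 0.124 and 0.0862).

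The dimmer Abcb1a probe set read 5.31, 5.66 and 5.78 in vehicle rats, 5.43, 5.82 and 6.07 at the low dose, 6.16, 6.02 and 6.41 at the middle dose, and 6.97, 6.47 and 6.69 at the high dose. Here 8 of the 9 treated rats were above every vehicle rat, an order whose share of all probe sets was not counted. Rat 1 at the low dose lay within the vehicle range (exact permutation test of treated against vehicle rats, p = 0.0364). At the high dose the log2 difference was 1.13, 2.18-fold (95% interval 0.67 to 1.58), close in size to that of the brighter set, and its limma adjusted p of 0.0559 fell short of the threshold. Its slope of 0.56 log2 units per 100 mg/kg passed (SE 0.091, limma adjusted p = 0.0141). Both slopes called among the pumps were therefore those of Abcb1a, in a fit where 0.309% of all probe sets were called, 0.179% as rising. This slope too was lost without rat 1 at the high dose (0.51 per 100 mg/kg, limma adjusted p = 0.0879). The 2 probe sets correlated at r = 0.884 over the 12 rats and at 0.529 within groups; they measure the same RNA samples and are no independent support for each other.

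The probe set shared by Abcb1a and Abcb1b cannot be assigned to either gene. It read 6.29, 5.96 and 6.01 in vehicle rats, 6.48, 6.54 and 6.43 at the low dose, 6.57, 7.02 and 6.85 at the middle dose, and 7.19, 6.91 and 6.92 at the high dose. All 9 treated rats were again above all 3 vehicle rats, and the ranges at the middle and high doses overlapped. The log2 difference at the high dose was 0.92, 1.89-fold (95% interval 0.59 to 1.25, limma adjusted p = 0.0326), and the slope was 0.42 per 100 mg/kg (limma adjusted p = 0.0340). No value specific to Abcb1b can be given from these arrays.

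Among 10840 genes with a value in every rat, the 5 whose profile over the 12 rats was most like that of the brighter Abcb1a set were Nqo1 (Pearson r = 0.969), Atp5if1 (0.943), Ipo5 (0.934), Ugdh (0.925) and Kxd1 (0.920). Nqo1 is the quinone reductase of xenobiotic defence and Ugdh makes the UDP-glucuronic acid used for conjugation. Ipo5 is a nuclear import receptor, and Atp5if1 is an inhibitor of the mitochondrial ATP synthase. These coefficients are a ranking over 12 shared arrays in 4 groups and carry no test.

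Abcc2 (Mrp2), the canalicular exporter of conjugates, read 9.38, 9.44 and 9.11 in vehicle rats, 8.58, 9.26 and 8.76 at the low dose, 9.39, 9.27 and 9.31 at the middle dose, and 9.19, 9.46 and 9.63 at the high dose. Rats 1 and 3 at the low dose were the 2 lowest of the 12, and rat 2 of that group was within the vehicle range. At the high dose the log2 difference from vehicle was 0.12 (95% interval -0.23 to 0.47, limma adjusted p = 0.898), so that a rise beyond 0.47 was outside the interval. At the low dose it was -0.44 (95% interval -0.79 to -0.09), with a limma p of 0.0168 before and 0.946 after adjustment, in a comparison where 5.11% of all probe sets had an unadjusted p under 0.05. The step from low to high dose was 0.56 (95% interval 0.21 to 0.90, limma adjusted p = 0.372).

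Abcb11 (Bsep), the bile salt export pump, lay between 10.72 and 10.98 in vehicle rats and between 10.49 and 11.08 at the high dose. The high-dose range enclosed that of vehicle, and the log2 difference of -0.12 had a 95% interval of -0.40 to 0.17 (limma adjusted p = 0.880). Abcb4 (Mdr2), the phosphatidylcholine flippase of the bile canaliculus, lay between 8.40 and 9.22 in vehicle rats and between 8.65 and 8.67 at the high dose. The vehicle rats thus spanned the other 9 rats, whose values ran from 8.65 to 8.88, and the log2 difference at the high dose was -0.16 (95% interval -0.49 to 0.17, limma adjusted p = 0.842). Together these were the pumps of the main bile lipids and salts, and both intervals left out a change of 0.5 log2 units in either direction.

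Abcg2 (Bcrp), a pump for sulfated conjugates and drugs, was spread widely within groups, from 4.47 to 5.67 in vehicle rats and from 4.23 to 5.32 at the high dose. Each group held at least 1 rat below 4.6 and at least 1 above 5.2. The log2 difference at the high dose was -0.29, and its 95% interval of -1.19 to 0.61 was the widest of the pumps tested (limma adjusted p = 0.907). Abcc6 (Mrp6), the sinusoidal pump whose loss in humans causes pseudoxanthoma elasticum, lay between 9.48 and 9.97 in vehicle rats and between 9.44 and 9.73 at the high dose. The groups overlapped, with a log2 difference of -0.18 (95% interval -0.52 to 0.16, limma adjusted p = 0.822).

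**Figure D2:**
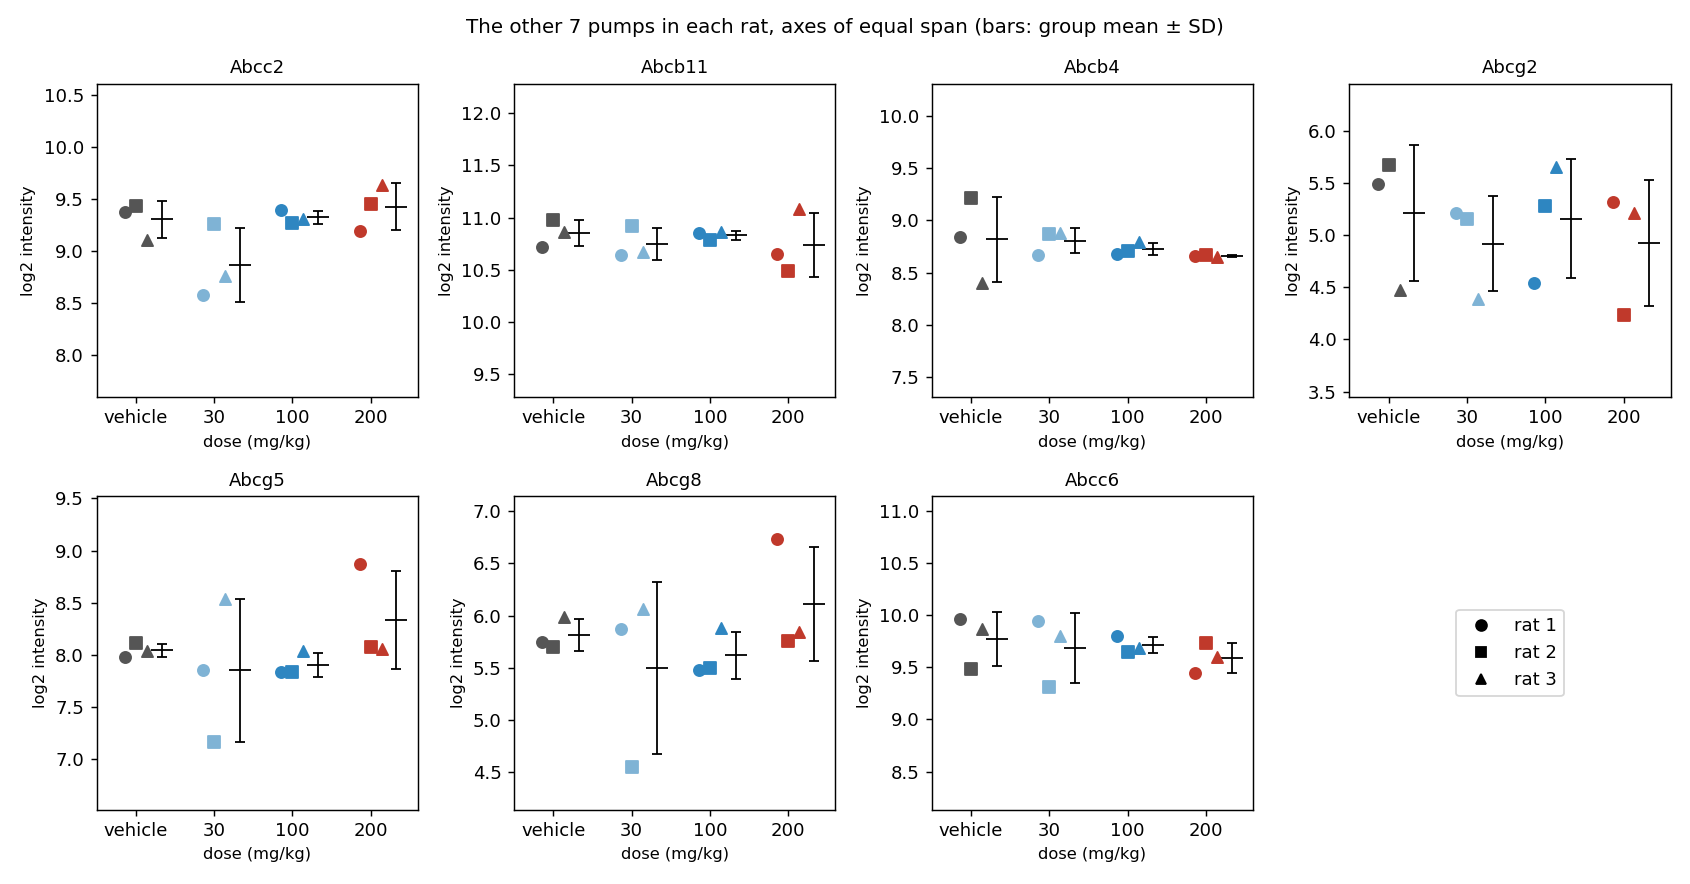
Log2 intensity (vertical axes of equal span) of Abcc2, Abcb11, Abcb4, Abcg2, Abcg5, Abcg8 and Abcc6 in each rat, by dose in mg/kg, with group means ± SD as bars. Treated and vehicle rats overlap in every panel; Abcc2 is low in rats 1 and 3 at the low dose, and Abcg5 and Abcg8 are both low in rat 2 at the low dose (7.17 and 4.55) and both high in rat 1 at the high dose (8.87 and 6.73).

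Abcg5 and Abcg8 encode the 2 subunits of the sterol transporter of the bile canaliculus. Their genes lie head to head on chromosome 6 with 205 bases between the annotated starts, and 295 bases of their RefSeq windows are the same DNA. The bases between the starts (GRCr8, chr6:15717731-15717935, read on the plus strand, from the Abcg8 start towards that of Abcg5) are shown because the genes start at either end of them and varied together across the rats, and the capitals mark the 1 match to TGACNNNGC.
Abcg8 to Abcg5: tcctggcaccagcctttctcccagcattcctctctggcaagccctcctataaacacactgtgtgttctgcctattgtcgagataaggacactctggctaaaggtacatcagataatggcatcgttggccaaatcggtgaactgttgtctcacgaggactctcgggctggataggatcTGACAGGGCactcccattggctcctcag

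Abcg5 read 7.99, 8.11 and 8.04 in vehicle rats, 7.86, 7.17 and 8.53 at the low dose, 7.84, 7.83 and 8.04 at the middle dose, and 8.87, 8.07 and 8.06 at the high dose. Abcg8 read 5.75, 5.70 and 5.99, then 5.87, 4.55 and 6.07, then 5.48, 5.49 and 5.88, and 6.73, 5.75 and 5.85 in the same order. In both genes rat 2 at the low dose was the lowest and rat 1 at the high dose the highest of the 12, and the other 10 rats ran from 7.83 to 8.53 in Abcg5 and from 5.48 to 6.07 in Abcg8. Neither gene was called at the high dose, with log2 differences of 0.29 for Abcg5 (95% interval -0.31 to 0.89, limma adjusted p = 0.844) and 0.30 for Abcg8 (95% interval -0.47 to 1.07, limma adjusted p = 0.886). Without rat 1 at the high dose these differences were 0.02 and -0.01.

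Over the 12 rats Abcg5 and Abcg8 correlated at Pearson r = 0.942 (permutation p = 0.00013, adjusted p = 0.00364 over the 28 pairs among 8 pumps with a value in every rat) and at Spearman rho = 0.706 (permutation p = 0.0127, adjusted p = 0.357). Within groups r was 0.927. Without the 2 rats farthest from the Abcg8 median, rat 2 at the low dose and rat 1 at the high dose, r was 0.691, so that much of the relation rested on those 2 rats. Each gene was the other's closest by Pearson r among the 10840 genes. No other pair of pumps passed over the 12 rats, and the next highest r over them in absolute value was that of Abcb4 and Abcg2, at 0.479 (permutation p = 0.114, adjusted p = 0.607). Within groups Abcc2 had an r of -0.868 with Abcg8 and -0.693 with Abcg5, given as a description with no test.

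**Figure D3:**
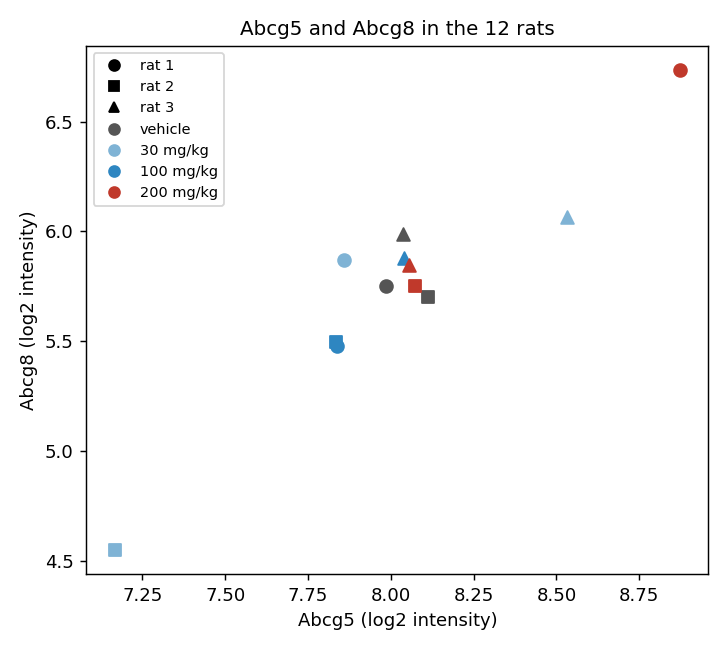
Log2 intensity of Abcg8 (vertical axis) against that of Abcg5 (horizontal axis) in the 12 rats, with colour for the dose group and symbol for the rat number. The points rise together (r = 0.942), with rat 2 at the low dose at one end and rat 1 at the high dose at the other; without these 2 rats r is 0.691.

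The 3 comparisons with vehicle share the same 3 vehicle rats. The median log2 difference of the 8 pump genes tested was -0.15 at the low dose, -0.06 at the middle dose and 0.00 at the high dose, beside medians of 0.00, 0.01 and 0.01 over all genes (12943 to 12974). At the low and middle doses limma called none of the 9 pump probe sets tested, where 0.00739% and 0.0221% of all probe sets were called, and the methods' t-test at an unadjusted p of at most 0.05 gave 0 and 2, both of Abcb1a, beside 4.74% and 6.54% of all probe sets. At an unadjusted limma p under 0.05, 1 pump gene was higher (Abcb1a) and 1 lower (Abcc2) at the low dose, where 5.11% of all probe sets had such a p, and 1 was higher (Abcb1a) at the middle dose (5.98% of all probe sets). For the mean of the 3 doses against vehicle no pump was called, where 0.061% of all probe sets were called, and the brighter Abcb1a set was nearest, at 0.68 (limma adjusted p = 0.146); Abcb1a was also the 1 pump gene with an unadjusted p under 0.05, beside 6.76% of all probe sets. Between doses no pump was called either. At an unadjusted limma p under 0.05, 3 pump genes (Abcc3, Abcb1a and Abcc2) were higher at the high than at the low dose and 2 (Abcc3 and Abcb1a) higher than at the middle dose, beside 7.79% and 5.9% of all probe sets; against the low dose Abcc3 rests on 1 measured rat there. The brighter Abcb1a set was 0.70 higher at the high than at the low dose (95% interval 0.35 to 1.05, limma adjusted p = 0.255) and 0.63 higher than at the middle dose (95% interval 0.28 to 0.98, limma adjusted p = 0.600). Between the low and middle doses, where 0% of all probe sets were called, its difference was 0.07 (95% interval -0.28 to 0.42). There 1 pump gene, Abcc2 at 0.46, had an unadjusted limma p under 0.05, beside 5.41% of all genes.

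**Figure D4:**
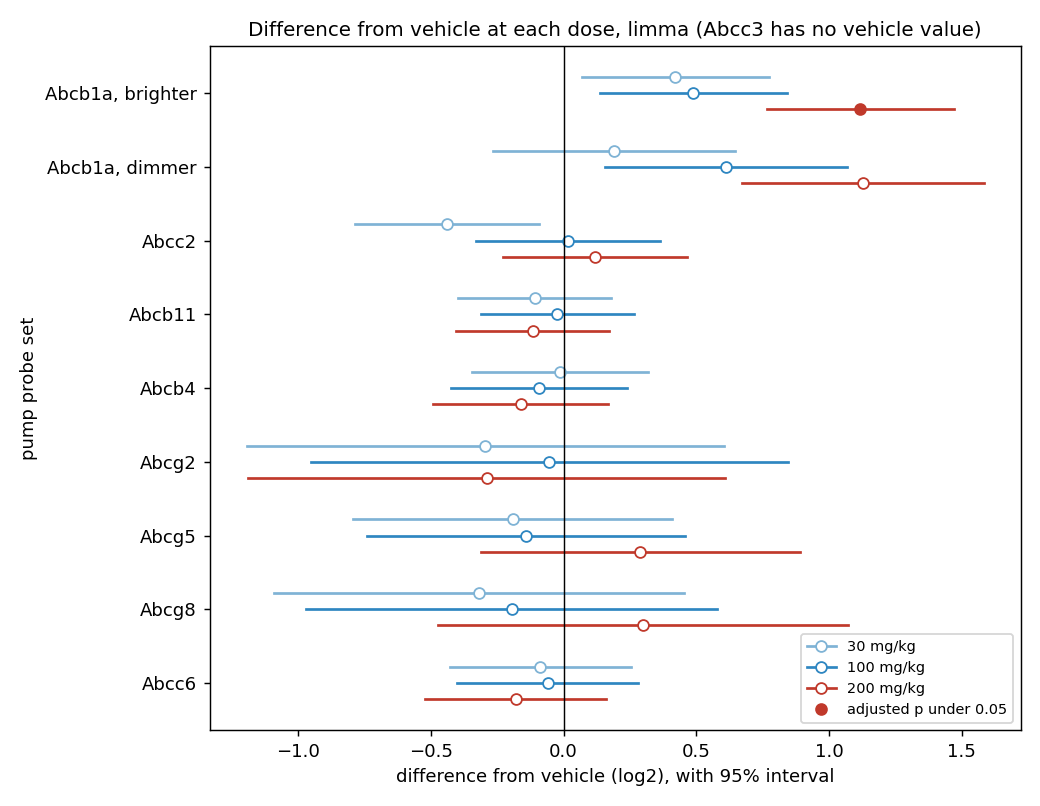
Difference from vehicle on the log2 scale (horizontal axis) for each pump probe set with vehicle values (vertical axis), at 30, 100 and 200 mg/kg, with 95% intervals from limma; the filled point is the 1 difference with an adjusted p under 0.05. The brighter Abcb1a set stands at 0.42, 0.49 and 1.12 and the dimmer at 1.13 at the high dose, while the intervals of the other 7 pumps reach across 0 except that of Abcc2 at the low dose.

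The list of other ABC genes held 42 symbols, among them Abcb2, Abcb3 and Abcc7 as second symbols of Tap1, Tap2 and Cftr. Of these genes 31 were measured and none passed limma's test against vehicle at any dose. At the high dose 12 lay above and 19 below vehicle, with a median of -0.13 beside 0.01 over all genes, and 2 were higher and none lower at an unadjusted p under 0.05, against 10.5% of all genes. The smallest p belonged to Abcb6, a porphyrin transporter, which was 6.53 ± 0.15 in vehicle rats and 7.12 ± 0.10 at the high dose (SD, n = 3 each), a log2 difference of 0.59 (limma adjusted p = 0.147). Next came Abce1, a ribosome recycling factor with no transport role, at 0.41 (limma adjusted p = 0.320), and Tap2, a subunit of the peptide transporter of antigen presentation, at 2.07 (limma adjusted p = 0.589) with a vehicle SD of 2.63.

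A list of nuclear receptors, other regulators and canalicular partner proteins of the pumps held 25 symbols, with Slc9a3r1 as a second symbol of Nherf1. Of these genes 22 were measured and none passed against vehicle at any dose. At the high dose 12 lay above and 10 below vehicle (median 0.08), and 3 were higher and 4 lower at an unadjusted limma p under 0.05, against 10.5% of all genes. Ahr, the receptor for dioxins and other aromatic ligands, was 4.84 ± 0.63 in vehicle rats and 6.14 ± 0.24 at the high dose (SD, n = 3 each), a log2 difference of 1.30 (limma adjusted p = 0.214). Rdx, which anchors canalicular pumps to actin, differed by 0.25 (limma adjusted p = 0.394). Slc51a, a subunit of the sinusoidal organic solute transporter, differed by -1.57 with a spread of 1.44 (SD, n = 3) at the high dose (limma adjusted p = 0.404).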

How the data were processed

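The authors hybridized liver RNA of each rat to 1 array and deposited log10 intensities made with the Rosetta Resolver software, whose background correction, scaling and reason for empty values are not given in any source used here. Of the deposited values, 12.1% were empty and were treated as missing. A second deposited table holds the authors' own comparisons, signed folds of each treated rat, and was not used. Log10 values were converted to log2 with no further normalization and fitted in limma 3.58.1 (R 4.3.3), with 4 group means in 1 model, a variance trend, and Benjamini-Hochberg adjustment over all probe sets tested, at a threshold of 0.05. The platform annotation gave the gene of a probe set, under its current RefSeq (GRCr8) symbol, and where a gene had several the brightest stood for it. Exact permutation tests used scipy 1.17.1, and p-values of correlations 100000 permutations. The study tested its arrays with the error model of Rosetta Resolver, which cannot be repeated from the deposited values. What is called the methods' t-test here is the standard t-test that the study lists for its graphing software. The scripts were tested on simulated data. The number of arrays limits the precision. The labels call the rats of a group biological replicates.

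All 10 pumps are named, the other ABC genes and regulators by threshold or, failing that, the 3 smallest p at 200 mg/kg, and the 5 genes most like each pump called against vehicle. The members and lists were chosen with earlier results of these data known. Alternatives were other normalizations, floors, a filter, variance models, the groups in the fit, a replicate block, the methods' t-test, other thresholds and dose scales, and leaving out each rat. The rat numbers did not pair the groups.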

Additional observations from a re-analysis of the deposited data

How the results depend on the processing

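In the counts of pump probe sets called, 79 of 93 values under other settings and 91 of 96 without 1 rat were rated the same. This rating compares counts and not which pumps were called, and it includes slope counts of 3 against 2. At 200 mg/kg against vehicle with empty and dim values at the floor the count stayed at 1, but the pump called was Abcc3 and no longer Abcb1a. At 200 mg/kg against vehicle, where 1 was called, the count was 2 with a filter on dim and empty probe sets, 2 at a threshold of 0.1 and 2 by the methods' t-test at an unadjusted p of at most 0.05, which 8.07% of all probe sets passed. It was 0 without the variance trend, 0 with only the 2 groups in the fit, 0 with the floor at the median of all values and 0 by the methods' t-test after Benjamini-Hochberg, and 0 to 2 without 1 rat. The methods' t-test at an unadjusted p of at most 0.05 also gave 2 at 100 mg/kg, 2 for the mean of the doses, 2 for 200 against 30 mg/kg and 2 for 200 against 100 mg/kg, where the main count was 0 (6.54%, 6.2%, 6.35% and 5.6% of all probe sets). For 200 against 30 mg/kg the count was 1 (Abcc3) with the floor and 1 with only the 2 groups, and 0 to 1 without 1 rat, as for 200 against 100 mg/kg (0 to 1). For the slope, with 2 called, it was 0 without the variance trend, 3 with either floor (Abcc3 added) and 0 to 2 without 1 rat. The cause of these differences was not tested.

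For Abcb1a at 200 mg/kg the log2 difference stayed at 1.12 while the limma adjusted p was 0.0648 with the floor, 0.0733 with the floor at the median, 0.124 without the variance trend and 0.0862 with only the 2 groups, and that of the methods' t-test after Benjamini-Hochberg was 0.452. Without 1 rat the difference was 0.97 to 1.22 (called in 11 of 12). Its slope of 0.50 had an adjusted p of 0.0944 without the trend, and was 0.43 to 0.54 without 1 rat. The Abcc3 bound at 200 mg/kg moved from 4.04 to 2.66 on the log2 scale with the floor at the median, and was 3.86 to 4.17 without 1 rat. At 200 mg/kg, leaving out 1 rat turned the sign of 4 differences that were not called: Abcb11 (-0.288 to 0.010), Abcb4 (-0.369 to 0.037), Abcg2 (-0.660 to 0.056) and Abcg8 (-0.014 to 0.477).

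Rats with the same number did not deviate together (correlations of -0.074 to 0.076, with 5 of 12 rats correlating best with their own number), and the replicate block changed no call among the pumps: the count was 1 at 200 mg/kg (Abcb1a, limma adjusted p = 0.0198) and 2 for the slope. With 3 rats per group, the 95% intervals at 200 mg/kg ran from -1.19 to 0.61 for Abcg2 and from -0.40 to 0.17 for Abcb11, and changes within these intervals are not left out.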
